A study of Homo sapiens with 8 samples.

Results

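The minor spliceosome was followed in Caco-2 cells through 10 genes named for this purpose: its small nuclear RNAs (snRNAs) RNU11, RNU12, RNU4ATAC and RNU6ATAC, and the U11/U12 proteins SNRNP35, SNRNP25, ZCRB1, RNPC3, ZMAT5 and PDCD7. They were matched by symbol, and each stood on 1 of the 63816 gene entries of the table. Caco-2 is an established human line from a colorectal adenocarcinoma. It had been transfected with the empty plasmid pcDNA3.1 (4 samples, the empty vector group) or with the same plasmid carrying SIGLEC12, the gene for Siglec-XII, a cell surface protein of the Siglec family (4 samples, the Siglec-XII group), and stable clones had been selected. Both groups therefore carry the plasmid backbone and passed through selection. Since every group comes from a transfection and selection of its own, Siglec-XII and the chance make-up of the selected cells cannot be told apart. The design text speaks of 3 cultures per condition and the study's methods of technical replicate libraries, so p-values here measure the spread between 4 libraries of a group, which may be technical.

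The minor spliceosome removes a small class of introns, called U12-type, that lie next to ordinary introns in the same genes. U11 and U12, bound together with the U11/U12 proteins, recognise the start of the intron and its branch point. U4atac and U6atac then join with the U5 particle, and U6atac takes the place of U11 at the start of the intron. U11, U12, U4atac and U6atac stand in for U1, U2, U4 and U6 of the major spliceosome, while U5, the Sm proteins and the SF3B proteins serve both machines.

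The snRNA sequences are shown because they carry the base-pairing parts by which these RNAs read an intron and the site where the Sm protein ring sits. Capitals mark the Sm site AATTTTT and, near the start of U11, U12 and U6atac, the letters that can pair with intron sequence: AAGG in U11, AAGGAA in U12 and AAGGA in U6atac. The sequences are from the GENCODE transcripts on GRCh37 and written as DNA.
U11: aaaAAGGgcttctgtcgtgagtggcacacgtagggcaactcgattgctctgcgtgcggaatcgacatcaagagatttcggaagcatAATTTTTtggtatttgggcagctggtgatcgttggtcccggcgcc
U12: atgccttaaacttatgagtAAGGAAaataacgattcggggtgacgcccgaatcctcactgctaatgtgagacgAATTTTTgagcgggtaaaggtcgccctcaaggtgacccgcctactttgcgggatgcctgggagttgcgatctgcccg
U4atac: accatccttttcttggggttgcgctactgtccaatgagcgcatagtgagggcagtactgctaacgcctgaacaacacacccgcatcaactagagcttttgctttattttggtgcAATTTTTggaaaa
U6atac: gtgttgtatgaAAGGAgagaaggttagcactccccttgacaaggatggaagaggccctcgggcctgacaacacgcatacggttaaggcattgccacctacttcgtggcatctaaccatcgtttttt

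U4atac lies at chr2:122288457-122288583 on the plus strand and U6atac at chr9:137029561-137029686 on the minus strand. The gene IDs under which the table lists RNU11 and RNU12 have no position in this annotation. The U11 letters above are the 131 bases of a long noncoding RNA entry, AL360012.1 (ENSG00000270103), at chr1:28975112-28975242, and the U12 letters are the first 150 bases of another, Z93241.1 (ENSG00000270022), at chr22:43011250-43011913. The letters AATTTTT occurred once in U11, U12 and U4atac and 0 times in U6atac, which is known to carry a ring of LSm proteins in place of the Sm ring. Of 1914 annotated snRNA transcripts, 6.58% held AATTTTT on their own strand. AAGGAA was in 1.46%, AAGGA in 43.7% and AAGG in 57.1%, the shorter letters being contained in the longer ones. With 126 to 150 bases, these RNAs are shorter than the 200 bases of a pair of 100-base reads, and they have no poly(A) tail. The labels name a kit for total RNA and the study's methods a kit for mRNA.

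Transcript levels are given as TPM, transcripts per 1e+06 transcripts, which takes transcript length into account, and differences on the scale of log2(TPM + 1) as Siglec-XII minus empty vector. The differences come from limma over 15590 entries, those with 1 TPM or more in 4 or more samples, with Benjamini-Hochberg adjustment over all of them. All 10 genes passed that filter. SIGLEC12 itself was at 0.0399 to 0.122 TPM with the empty vector and at 1582 to 1734 TPM with Siglec-XII. The cells were checked for their type by 13 colon epithelium markers. Of these 2 passed the filter, CDX1 and CDX2, with means of 147 and 40.6 TPM over the 8 samples. SI, KRT20 and FABP1 were listed at 0 in all 8 samples. The remaining colon markers had means from 0.0143 TPM (CEACAM5) to 0.641 TPM (VIL1). The name Caco-2 is that of the labels, and most of the colon list does not bear it out. The summed level of the colon list was 163 to 186 TPM with the empty vector and 190 to 215 TPM with Siglec-XII. Of 8 trophoblast genes 7 passed, with sums of 594 to 763 TPM and 597 to 669 TPM, and of 5 fibroblast genes 4 passed, with sums of 67.3 to 82.5 TPM and 79.2 to 84.3 TPM. The trophoblast sum came mostly from GATA3, TFAP2C, PEG10 and TFAP2A, with means of 380, 161, 78.6 and 33.05 TPM. The rest of that list was low, with means of 1.40 TPM for ERVW-1, 1.225 for ERVFRD-1, 0.785 for CGA and 0.0287 for CGB5. The part of cell type in the results below was not tested.

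None of the 10 minor spliceosome genes passed the test. The count with a limma adjusted p under 0.05 was 0 of 10, where 101 of all tested entries (0.648%) passed. The count at an unadjusted p under 0.05 was also 0, against a background of 16.5%. The groups overlapped for each of the 10, while for 10.8% of all entries they did not. The lowest limma adjusted p was 0.337, for RNU12, and the highest 0.924, for RNPC3.

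The 6 U11/U12 protein mRNAs were measured closely enough to bound a change. SNRNP35 encodes the U11 protein that resembles the U1 protein SNRNP70. It was at 33.3, 28.7, 33.2 and 37.4 TPM in the 4 empty vector samples and at 34.5, 33.4, 30.5 and 37.2 TPM in the 4 Siglec-XII samples. The groups overlapped over most of their range, and the log2 difference was 0.03 ± 0.09 (SE, n = 4 per group, limma adjusted p = 0.879). SNRNP25, another U11 protein, was at 38.8, 34.4, 46.3 and 37.5 TPM with the empty vector and at 50.8, 36.5, 41.0 and 47.1 TPM with Siglec-XII. Its highest value was Siglec-XII replicate 1 and its lowest empty vector replicate 2, and its log2 difference of 0.15 ± 0.12 (SE, limma adjusted p = 0.545) was the highest of the 6.

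ZCRB1, a zinc-finger and RNA-binding protein of the U11/U12 particle, had the highest level of the 10 genes. Its values were 60.6, 48.1, 59.1 and 61.1 TPM with the empty vector and 54.9, 52.3, 61.1 and 50.5 TPM with Siglec-XII. Empty vector replicate 2 stood below the other 7 samples, and the log2 difference was -0.06 ± 0.09 (SE, limma adjusted p = 0.772). RNPC3 binds U12 and, through PDCD7, links it to U11. It was at 14.4, 12.01, 14.6 and 11.2 TPM with the empty vector and at 16.7, 13.9, 14.3 and 9.62 TPM with Siglec-XII. Both its highest and its lowest value were in the Siglec-XII group, with a log2 difference of 0.04 ± 0.15 (SE, limma adjusted p = 0.924). PDCD7, its partner, was at 14.7, 15.8, 17.6 and 14.5 TPM with the empty vector and at 15.8, 14.5, 14.0 and 15.7 TPM with Siglec-XII. These values lay within a narrow band, with a log2 difference of -0.06 ± 0.08 (SE, limma adjusted p = 0.755). ZMAT5, a small zinc-finger protein of the same particle, was at 13.2, 13.2, 17.4 and 15.3 TPM with the empty vector and at 14.0, 16.1, 15.9 and 20.3 TPM with Siglec-XII. Its highest value was Siglec-XII replicate 4, and its log2 difference was 0.15 ± 0.12 (SE, limma adjusted p = 0.574).

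**Figure D1:**
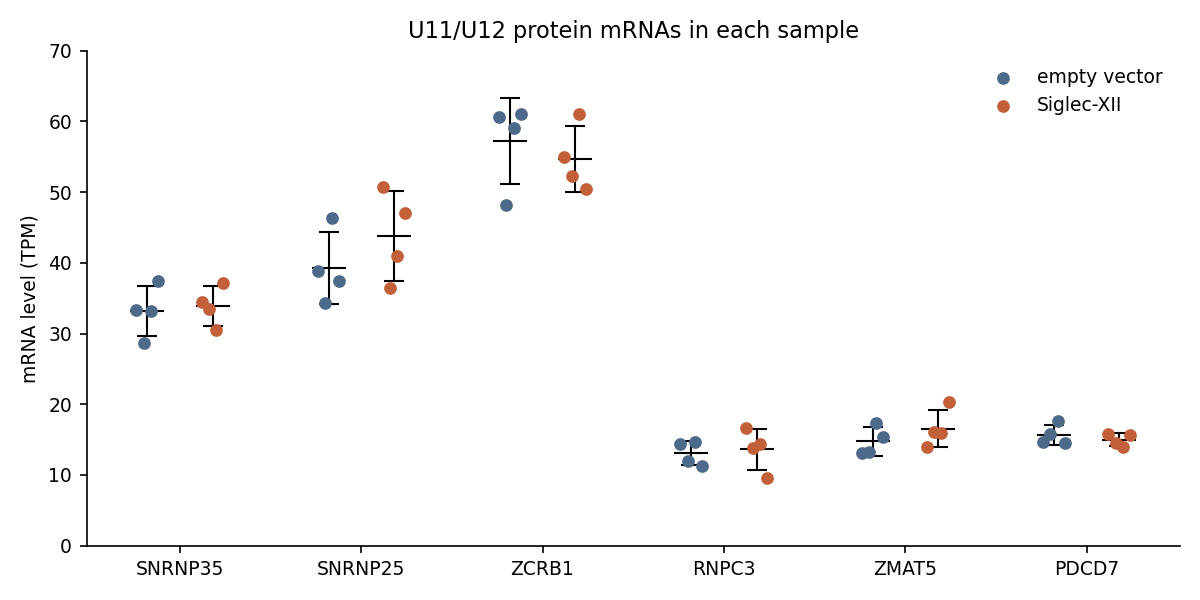
mRNA level in TPM of the 6 U11/U12 proteins, with 1 point per sample, the mean as a horizontal line and the SD as bars (4 samples per group). ZCRB1, SNRNP25 and SNRNP35 lie between 28.7 and 61.1 TPM and RNPC3, ZMAT5 and PDCD7 between 9.62 and 20.3 TPM, and the groups overlap for all 6.

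The 95% intervals of the 6 protein mRNAs reached at most 0.43 on the log2 scale in either direction. As ratios of TPM + 1, the interval of PDCD7 ran from 0.850 to 1.08, that of SNRNP35 from 0.894 to 1.17 and that of ZCRB1 from 0.835 to 1.10. The widest, of RNPC3, ran from 0.809 to 1.30. Higher upper bounds were those of SNRNP25, from 0.928 to 1.33, and ZMAT5, from 0.917 to 1.35. The median difference of the 6 was 0.04, beside 0.07 over all tested entries. As deposited, 4 of the 6 had a difference above 0, where 68.1% of all tested entries did. The signs of SNRNP35 and RNPC3 turned under each of 3 other scalings of the samples (quantile normalization, equal upper quartiles, and the mitochondrial and most abundant entries left out), which left 2 of 6 above 0, where 52.9% to 58.5% of all tested entries then were.

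The snRNAs were read far less closely, with SEs of 0.46 to 0.75 on the log2 scale against 0.08 to 0.15 for the proteins. RNU6ATAC, the gene of the RNA that pairs with the intron at the catalytic step, was the only snRNA above 0 in all 8 samples. It was at 9.24, 22.7, 20.3 and 19.6 TPM with the empty vector and at 6.19, 29.3, 29.1 and 22.9 TPM with Siglec-XII. Replicate 1 was the lowest sample of each group, and the groups overlapped. The group means were 17.95 TPM ± 5.95 and 21.9 TPM ± 10.9 (SD, n = 4), with a log2 difference of 0.14 ± 0.46 (SE, limma adjusted p = 0.907). Leaving out 1 sample at a time moved it between -0.13 and 0.63.

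RNU4ATAC, the gene of the RNA that holds U6atac inactive until splicing starts, was at 2.25, 0, 2.86 and 5.498 TPM with the empty vector and at 0, 4.42, 0 and 2.81 TPM with Siglec-XII. It was listed at 0 in 1 sample of the first group and 2 of the second, and its log2 difference was -0.50 ± 0.69 (SE, limma adjusted p = 0.766). RNU4ATAC lies inside CLASP1, a microtubule-binding protein gene on the opposite strand, whose log2 difference was 0.25 (limma adjusted p = 0.123). This was the lowest adjusted p among the 8 tested genes that overlap one of these genes or start within 1000 bases of it. POLR3K, which starts 220 bases from SNRNP25 on the other strand, differed by 0.01 (limma adjusted p = 0.979). RNU12, the gene of the RNA that pairs with the branch point, was at 1.45, 5.42, 0 and 1.62 TPM with the empty vector and at 0, 0, 1.18 and 0 TPM with Siglec-XII. It was listed at 0 in 1 empty vector sample and 3 Siglec-XII samples. Its log2 difference of -1.06 ± 0.51 (SE) had a 95% interval from -2.20 to 0.08 (limma adjusted p = 0.337).

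RNU11, the gene of the RNA that first pairs with the start of the intron, was at 0, 7.56, 0 and 0 TPM with the empty vector and at 2.73, 3.95, 2.28 and 0 TPM with Siglec-XII. It was listed at 0 in 3 empty vector samples and 1 Siglec-XII sample, with a log2 difference of 0.70 ± 0.75 (SE, limma adjusted p = 0.679). AL360012.1, the entry whose transcript is the U11 sequence printed above, was at 4.22 and 13.4 TPM in empty vector replicates 1 and 3 and at 0 in the other 6 samples. In both samples RNU11 was listed at 0, and in the 4 samples with RNU11 above 0 the noncoding entry was at 0. Summed over both entries, U11 was at 4.22, 7.56, 13.4 and 0 TPM with the empty vector and at 2.73, 3.95, 2.28 and 0 TPM with Siglec-XII. This sum, chosen after the data were seen, turned the sign of the difference to -0.85 (two-sided exact permutation p = 0.4). Z93241.1, which starts with U12, was at most 0.586 TPM, and U12 summed with it differed by -1.08 (two-sided exact permutation p = 0.0857).

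**Figure D2:**
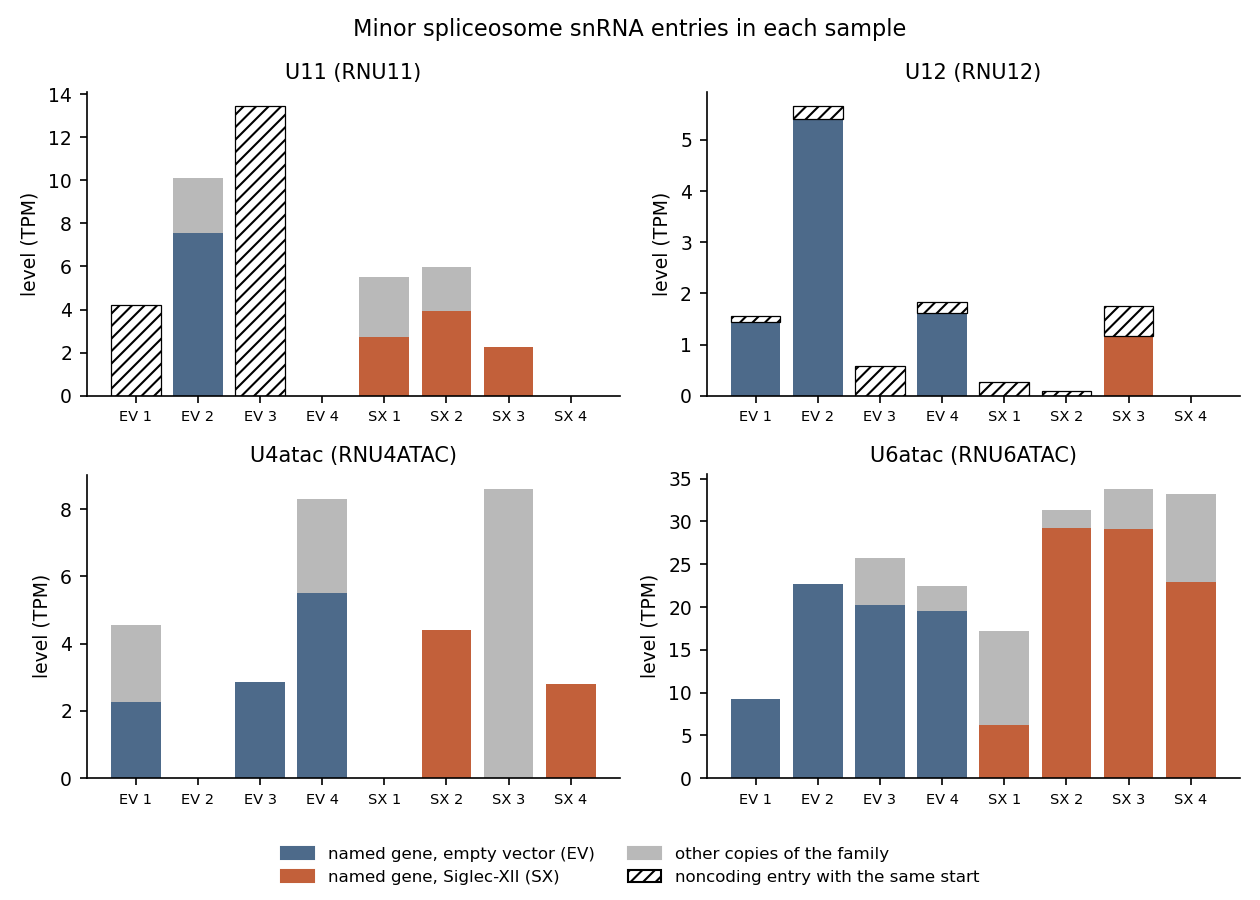
Level in TPM of the snRNA entries in each sample (EV, empty vector; SX, Siglec-XII), stacked as the named gene, other copies of its family and the noncoding entry with the same start, on axes that differ between panels. RNU11 and the noncoding entry are not above 0 in the same sample, and U6atac is the only RNA present in all 8 samples.

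Near-identical copies share reads with these genes, so each family was also summed. Of the U11 entries 2 of 6 were above 0 in any sample, of U12 1 of 2, of U4atac 3 of 19 and of U6atac 8 of 45. The U6atac family ran from 9.24 to 25.7 TPM with the empty vector and from 17.2 to 33.8 TPM with Siglec-XII, and in Siglec-XII replicate 1 the copy RNU6ATAC16P, at 7.65 TPM, exceeded RNU6ATAC. The family difference was 0.55 for U6atac, 0.93 for U11, -1.06 for U12 and -0.002 for U4atac on the log2 scale of the summed TPM + 1. By two-sided exact permutation tests the p-values adjusted over the 4 families were 0.4, 0.648, 0.4 and 1. Leaving out 1 sample moved these differences between 0.24 and 0.78 for U6atac, 0.60 and 1.80 for U11, -1.51 and -0.61 for U12 and -0.64 and 0.63 for U4atac. With a pseudocount of 0.1 in place of 1 they were 2.41 for U11 and -2.54 for U12, both of which have samples at 0. Over the 4 genes taken alone the adjusted p-values ran from 0.572 to 0.686.

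Ranked by mean TPM over the 8 samples, the order was ZCRB1 (55.9), SNRNP25 (41.5), SNRNP35 (33.5), RNU6ATAC (19.9), ZMAT5 (15.7), PDCD7 (15.3), RNPC3 (13.3), RNU4ATAC (2.23), RNU11 (2.06) and RNU12 (1.21). Neighbours in this order overlapped in their ranges over the samples, with the exception of RNPC3 and RNU4ATAC. The lowest RNPC3 value was 9.62 TPM and the highest RNU4ATAC value 5.498 TPM.

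**Figure D3:**
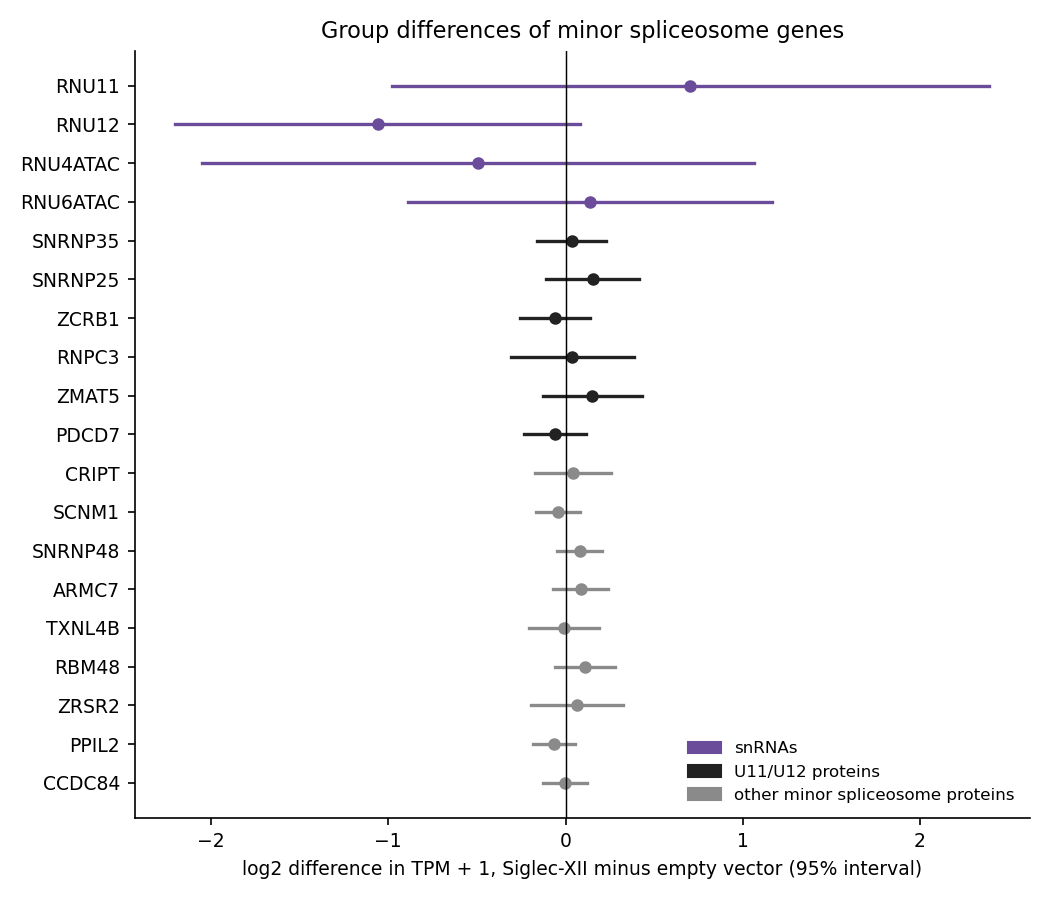
Log2 difference in TPM + 1, Siglec-XII minus empty vector, with its 95% interval from limma, for the 4 snRNAs, the 6 U11/U12 proteins and 9 other minor spliceosome proteins. All 19 intervals include 0, and those of the snRNAs are the widest, that of RNU11 reaching from -0.98 to 2.39.

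The other proteins particular to the minor spliceosome also showed small differences. The list held 9 genes, SNRNP48, ZRSR2, SCNM1, RBM48, ARMC7, CRIPT, PPIL2, TXNL4B and CENATAC (listed as CCDC84, on 2 entries with identical values). None passed limma at an adjusted or at an unadjusted p under 0.05, and 0 had groups that did not overlap as deposited. The shares of all tested entries were 0.648%, 16.5% and 10.8%. Under each of the 3 other scalings the groups did not overlap for 1 gene, PPIL2, which then lay lower with Siglec-XII. Of all tested entries 2.66% to 3.49% then lay lower without overlap. The differences of the listed genes ran from -0.06 to 0.11. The mean levels of single entries ran from 13.1 to 50.6 TPM, the 2 entries of CENATAC not being summed. SNRNP48, the U11 protein that contacts the start of the intron, had a log2 difference of 0.08 ± 0.06 (SE, limma adjusted p = 0.507). ZRSR2, which reads the end of U12-type introns, had one of 0.06 ± 0.12 (SE, limma adjusted p = 0.825).

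The mRNAs particular to the minor spliceosome were rarer than those particular to the major one. In 8 of 8 samples the highest of 15 minor-specific mRNAs was below the lowest of 10 major-only mRNAs such as SNRNP70, SF3A2 and U2AF1. This holds for entries taken singly, with ZCRB1 highest in 7 samples and SCNM1 in 1. The 2 entries of CENATAC had means of 26.8 TPM each. Their sum was not taken and would be the highest in some samples. In empty vector replicate 1, for example, ZCRB1 was at 60.6 TPM and SF3A2, the lowest major-only mRNA, at 113 TPM. The median of the major-only mRNAs was 7.29 to 9.66 times that of the 6 U11/U12 proteins. The median log2 difference of the major-only list was 0.03, and 0 of 10 passed limma at an adjusted or unadjusted p under 0.05. Of all tested entries 0.648% and 16.5% did.

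The minor snRNAs were likewise rare beside their major counterparts. Summed over families, they took 1.03%, 2.49%, 2.03% and 2.33% of the TPM of both classes with the empty vector and 1.85%, 4.03%, 3.24% and 3.51% with Siglec-XII. U6 is most of the denominator, at 897 to 1239 TPM. The sums cover unequal numbers of entries, 178 for U1, 93 for U2, 99 for U4 and 1433 for U6, beside 2 to 45 for the minor families. The U1 family, which recognises the start of ordinary introns, was at 241 to 311 TPM with the empty vector and at 39.3 to 84.1 TPM with Siglec-XII, a log2 difference of -2.25 with no overlap (exact permutation test, two-sided and unadjusted, p = 0.0286, which is the minimum for 4 against 4).

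Whether each minor snRNA moved unlike its counterpart was tested on their log2 ratio. U11 to U1 was -8.28, -4.44, -8.01 and -7.94 with the empty vector and -3.71, -2.84, -4.05 and -5.33 with Siglec-XII. The ratio was lower in 3 empty vector samples than in any Siglec-XII sample. The U11 family was listed at 0 in those 3 samples and also in Siglec-XII replicate 4, whose ratio was -5.33. The difference was 3.19 (two-sided exact permutation p = 0.0571, adjusted over 4 pairs 0.229). Taken apart, the U11 family differed by 0.93 and the U1 family by -2.25, so the larger part of the ratio's difference is that of U1. With AL360012.1 added to U11, again chosen with the values known, it was 1.63 (two-sided exact permutation p = 0.143). U6atac to U6 was -6.69, -5.61, -5.30 and -5.49 with the empty vector and -5.92, -4.80, -5.16 and -4.71 with Siglec-XII, a difference of 0.63 (exact permutation, adjusted p = 0.343). U4atac to U4 differed by 0.94 (exact permutation, adjusted p = 0.533) and U12 to U2 by -0.01 (exact permutation, adjusted p = 0.971). Taken apart, the U12 family differed by -1.06 and the U2 family by -1.05, so both were lower with Siglec-XII, with overlapping groups. The ratio of U12 to U2 differed by 0.04 with quantile normalization, 0.03 with equal upper quartiles and -1.47 with a pseudocount of 0.1 (exact permutation, unadjusted p = 0.343 for the last). Leaving out 1 sample moved U12 to U2 between -0.35 and 0.29, U4atac to U4 between 0.32 and 1.49, U6atac to U6 between 0.32 and 0.88 and U11 to U1 between 2.80 and 4.09. In Siglec-XII replicate 1 both U4atac and U4 were listed at 0, which makes that ratio 0, and without this sample the difference was 0.35.

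**Figure D4:**
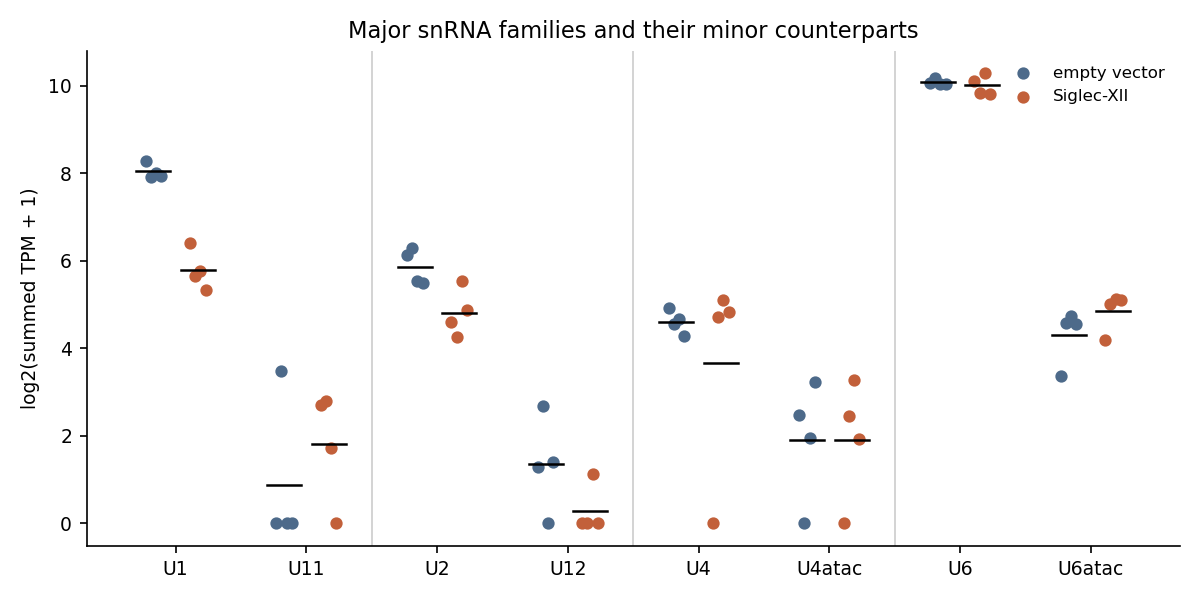
Summed level of 4 major snRNA families and their minor counterparts as log2(summed TPM + 1), with 1 point per sample and the mean as a line (4 samples per group). U1 is separated between the groups, at 241 to 311 TPM against 39.3 to 84.1 TPM, while the groups overlap in each minor family.

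Proteins that the minor spliceosome shares with the major one were counted by subcomplex. The Sm core forms the ring on U11, U12 and U4atac. Of its 7 genes 0 passed limma at an adjusted p under 0.05 and 2 at an unadjusted one, SNRPG and SNRPE. The background for such counts is 16.5%, the share of all tested entries with an unadjusted limma p under 0.05. A difference below 0 was seen in 6 of the 7 genes under all 4 scalings (median -0.10 as deposited). As deposited, SNRPG was the only one whose groups did not overlap, at 9.07 ± 0.12 and 8.73 ± 0.12 (log2, SD, n = 4), with a log2 difference of -0.33 ± 0.08 (SE, limma adjusted p = 0.0978). Of all tested entries 1.68% lay lower without overlap. Under each of the 3 other scalings 3 of the 7 did, SNRPG, SNRPE and SNRPD3, where the share of all entries was 2.66% to 3.49%. Of 7 SF3B genes, whose products hold the branch point, 0 passed at an adjusted p and 1 at an unadjusted one, SF3B1, with a log2 difference of 0.13 ± 0.06 (SE, limma adjusted p = 0.291). None was without overlap as deposited, and PHF5A lay lower without overlap under the 3 other scalings.

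The tri-snRNP is the particle that brings in U5 and U6 or U6atac. As deposited, its shared proteins held the largest share of entries without overlap among the lists of shared proteins. Under the 3 other scalings the Sm core held a larger share, 42.9% (all lower), beside 28.6% to 35.7% for the tri-snRNP (all higher). Of 14 entries for 12 genes, 0 passed limma at an adjusted p under 0.05 and 5 had an unadjusted p under 0.05, where 16.5% of all tested entries did. Without overlap, 6 lay higher in every Siglec-XII sample (42.9%, where 9.17% of all tested entries did). These 6 were both entries of PRPF8 and those of EFTUD2, SNRNP200, PRPF6 and PRPF4. PRPF8, EFTUD2, SNRNP200 and PRPF6 are U5 proteins, and PRPF4 binds U4/U6 and U4atac/U6atac. EFTUD2 was at 7.56 ± 0.06 and 7.73 ± 0.06 (log2, SD, n = 4), with a log2 difference of 0.17 ± 0.05 (SE, limma adjusted p = 0.137). PRPF4 had the lowest limma adjusted p of the list, 0.130, at a log2 difference of 0.20 ± 0.05 (SE). SNRNP200 differed by 0.14 ± 0.05 (SE, limma adjusted p = 0.201) and PRPF6 by 0.08 ± 0.04 (SE, limma adjusted p = 0.361). The entries without overlap numbered 5, 4 and 5 under quantile normalization, equal upper quartiles and with the mitochondrial and most abundant entries left out, and the entries with a difference above 0 fell from 12 to 9, 9 and 11. Of all tested entries 4.64%, 4.70% and 5.78% then lay higher without overlap, and 52.9%, 53.5% and 58.5% had a difference above 0.

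The Sm ring is loaded onto snRNAs by the SMN complex. Of 13 entries for 10 of its genes, 0 passed limma at an adjusted p under 0.05 and 1 had an unadjusted p under 0.05, beside 16.5% of all tested entries. Higher without overlap lay 2 (15.4%, beside 9.17% of all tested entries), GEMIN6 (log2 difference 0.18 ± 0.06, SE, limma adjusted p = 0.178) and DDX20 (0.13 ± 0.06, SE, limma adjusted p = 0.352). Under each of the 3 other scalings 0 entries of this list were without overlap. SMN1 and SMN2 are near-identical copies, and how reads were divided between them is uncertain.

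Genes that hold U12-type introns are the substrate of the minor spliceosome, and their mRNA levels were read last. Introns of protein-coding genes were searched on GRCh37 for the starts ATATCCTT or GTATCCTT on the gene's own strand, and 759 of 320595 (0.237%) began so, in 568 of 19117 genes (2.97%). Of the 759, 180 ended in AC after an AT start and 535 in AG after a GT start. The branch point letters CCTTAA were in the last 40 bases of 277 (36.5%). A match to these letters is a description and not a proof that the minor spliceosome removes the intron. Examples are shown as the last 10 exon bases followed by the first 20 intron bases, with the motif in capitals, to set them beside the AAGG of U11.
NOP2, intron chr12:6672681-6672779, minus strand: atggagcaggATATCCTTgcagggcagagt
STK11, intron chr19:1218500-1219322, plus strand: agcagaaaatATATCCTTtccggtgttggg
RNPC3, intron chr1:104093696-104094342, plus strand: catggtggttGTATCCTTtaaatccatcta
RGCC, intron chr13:42038317-42040958, plus strand: aagctctcagGTATCCTTcatagccacgga

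NOP2 and STK11 are of the AT-AC kind and RNPC3 and RGCC of the GT-AG kind. The last 40 bases of the NOP2 intron, with the branch point letters in capitals, show the stretch that U12 pairs with.
NOP2, intron end: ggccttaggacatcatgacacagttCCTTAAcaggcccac
RNPC3 was the only one of the 10 minor spliceosome genes with such introns, of which the annotation lists 2. U11 is known to bind repeated copies of this kind of intron start in RNPC3 and SNRNP48 transcripts. The values of RNPC3 are given above.

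Of the hosts 450 were tested. Their median log2 difference was 0.04, beside 0.07 over 12081 protein-coding entries, and 66% were above 0 beside 71%. Without overlap between groups were 45 hosts (10%), beside 12% of protein-coding entries, and at an unadjusted limma p under 0.05 were 61 (13.6%), beside 18.1%. The hosts of AT-AC introns, 127 tested, had a median of 0.04, and 0 of them passed limma at an adjusted p under 0.05, with 17 (13.4%) at an unadjusted one. The 195 hosts with CCTTAA near the intron end had a median of 0.04, with 0 and 23 (11.8%).

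One host, 0.222% of those tested beside 0.414% of protein-coding entries, passed at an adjusted p under 0.05. This was RGCC, a regulator of the cell cycle. It was at 4.48, 4.60, 4.62 and 4.46 with the empty vector and at 4.88, 5.18, 5.10 and 4.94 with Siglec-XII on the log2(TPM + 1) scale. Every Siglec-XII sample was above every empty vector sample, and RGCC rose by 0.49 ± 0.08 (SE, limma adjusted p = 0.0310). The adjusted p lay between 0.0184 and 0.111 over 18 alternatives and was under 0.05 in 7 of them. The call was lost without the trend (0.0724), with no filter (0.111), under the 3 other scalings (0.0679 to 0.0970), and without Siglec-XII replicate 2, 3 or 4 or empty vector replicate 1, 3 or 4 (0.0612 to 0.110). The last 40 bases of the RGCC intron do not hold CCTTAA.

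Of 13 hosts listed by name, 11 had an intron with these letters. On their 13 tested entries 0 passed limma at an adjusted p under 0.05 and 4 had an unadjusted p under 0.05, beside 16.5% of all tested entries. Of the 13, 3 (23.1%, beside 9.17% of all tested entries) lay higher without overlap. Under quantile normalization, equal upper quartiles and with the mitochondrial and most abundant entries left out, 1, 1 and 2 did. Among them were STK11, a kinase upstream of AMPK (log2 difference 0.21 ± 0.05, SE, limma adjusted p = 0.124), and the transcription factor E2F3 (0.18 ± 0.06, SE, limma adjusted p = 0.217). The table gives levels per gene and not per intron, so retention of U12-type introns was not analysed here.

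**Figure D5:**
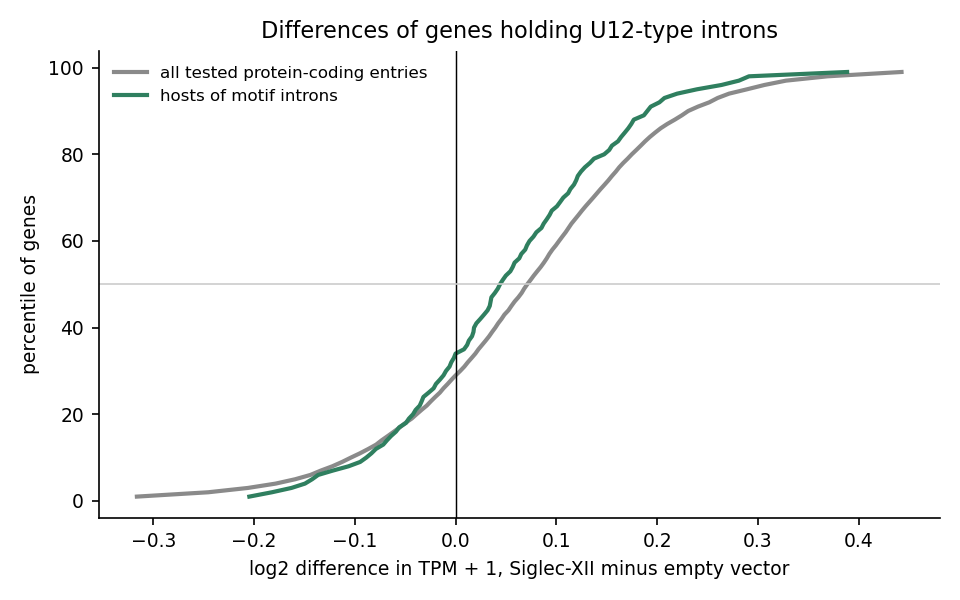
Percentiles 1 to 99 of the log2 difference in TPM + 1, Siglec-XII minus empty vector, for 450 tested hosts of introns that start ATATCCTT or GTATCCTT and for all 12081 tested protein-coding entries, the hosts included. The curve of the hosts crosses the middle at 0.04 and that of all protein-coding entries at 0.07.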

How the data were processed

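RNA-seq libraries of 8 Caco-2 samples were quantified by the authors with kallisto (0.45.0 per the submitters' processing notes) against hg19, and 1 table of log2(TPM + 1) was deposited. The labels give 25000000 to 40000000 reads of 100 bp per sample. Taken back from the log2 scale each column sums to 1e+06, so read counts per value are unknown and no counting interval is given. Members and lists were chosen with earlier results of these data known.

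The deposited log2 values were tested with limma 3.58.1 (lmFit, eBayes with trend, Benjamini-Hochberg over all 15590 entries with at least 1 TPM in 4 samples), after tests on simulated data. The study's own test for counts could not be used. Sums of snRNA entries were compared by two-sided exact permutation over 70 labellings. The text may name every member, every listed gene, neighbouring genes, the called hosts with the highest and lowest differences (3 each), SIGLEC12 and the major snRNA families. Same-numbered samples did not deviate together (correlations of -0.0742 to 0.0591), so replicate numbers were not used as pairs. Positions and introns are from GENCODE 44 lifted to GRCh37, which held 86.9% of the gene IDs. Alternatives were other pseudocounts (0.1), filters, scalings, no trend, array weights, a replicate block, small RNAs left out and each sample left out. Some listed genes are not reported here.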

Additional observations from a re-analysis of the deposited data

Results flagged for a closer look

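Single samples that lay far from the other 3 of their group were sought by Dixon's test at 95%, which chance alone passes in about 1 in 20 groups. That rate cannot be set beside the count here. A group with 3 samples at 0 is marked by any value above 0, and a gene and its family share values. The test marked 11 of 36 groups. On the log2(TPM + 1) scale these were RNU11 at 3.10 in empty vector replicate 2 and RNU12 at 1.12 in Siglec-XII replicate 3, where each was above 3 samples at 0. The U11 family stood at 3.48 and the U12 family at 1.12 in the same 2 samples. RNU6ATAC was low in replicate 1 of both groups, at 3.36 in the empty vector and 2.85 in the Siglec-XII group, and so was the U6atac family, at 3.36 and 4.19. The U4 family was listed at 0 in Siglec-XII replicate 1, and the U6 family was high at 10.18 in empty vector replicate 2. Of the protein mRNAs 1 was marked, ZCRB1, low at 5.62 in empty vector replicate 2.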

How the results depend on the processing

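No minor spliceosome gene passed limma at an adjusted p under 0.05 under any of the 18 alternatives. The lowest adjusted p over them was 0.160, for RNU11 without empty vector replicate 2, where its unadjusted limma p was 0.0158. That was the only empty vector sample with RNU11 above 0. RNU12 reached an unadjusted limma p of 0.00565 without empty vector replicate 3, the only empty vector sample with RNU12 at 0. SNRNP35 turned to -0.0258, -0.0075 and -0.0413 and RNPC3 to -0.0185, -0.0014 and -0.0242 with equal upper quartiles, with the mitochondrial and 100 most abundant entries left out, and with quantile normalization. Leaving out 1 sample moved SNRNP35 between -0.0304 and 0.0925, RNPC3 between -0.0605 and 0.185, RNU6ATAC between -0.13 and 0.63 and ZRSR2 between -0.0155 and 0.138. It moved the U4atac family between -0.64 and 0.63 and the ratio of U12 to U2 between -0.35 and 0.29. That ratio was 0.0406 with quantile normalization, 0.0294 with equal upper quartiles and -1.47 with a pseudocount of 0.1, which moved it most. U11 turned to -0.85 with the noncoding entry at its start added.

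The 101 calls over all entries became 54 without the trend, 51 with no filter, 34 with small structured RNAs left out and 49 to 159 without 1 sample. The lowest was without empty vector replicate 3 and the highest without empty vector replicate 2. The 1 called host became 2 with array weights or a mean of at least 5 TPM, 0 with no trend, no filter or any of the 3 scalings, and 0 to 2 without 1 sample. RNU11, RNU12 and RNU4ATAC have no value at a mean of at least 5 TPM. With the replicate number as a block the calls over all entries were 69, those among the minor spliceosome genes 0 and those among hosts 1, and the numbers do not pair the samples. The cause of these changes was not tested. Read depth per entry is unknown, and as ratios of TPM + 1 the 95% intervals of the snRNAs run from 0.217 for RNU12 up to 5.24 for RNU11.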
